A study of Mus musculus with 20 samples.

Results

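Drug and organic ion transporters of the mouse kidney are described here, taken as every gene of the deposited count tables whose symbol begins with Slc22a, Slco and a digit, Slc47a, Abcb and a digit or Abcc and a digit, together with Abcg2. The tables held 53 such genes among 15780 listed, and 48 of them passed the filter on low counts (at least 10 counts in 5 or more of the 20 libraries) and were tested. Kidney tissue of NCr nude female mice, 7 wk old at purchase, was sequenced as poly(A) RNA, with 1 library per mouse and 5 mice in each of 4 groups. Control mice received PBS by tail vein and vehicle by gavage. EIC mice received 6 intravenous injections of engineered immune complexes, each made from 0.2 mg human galactose-deficient IgA1 (Gd-IgA1) and 0.1 mg recombinant human IgG directed against it, and vehicle by gavage. EIC + S60 and EIC + S120 mice received the same complexes and 60 or 120 mg/kg sparsentan, which blocks the ETA receptor of endothelin and the AT1 receptor of angiotensin II, by daily gavage for 11 days. All kidneys were taken on day 12. Mice are numbered 651 to 655 in Control, 65 to 69 in EIC, 71 to 75 in EIC + S60 and 77 to 81 in EIC + S120, and values of single mice are given in that order. No group received sparsentan without the complexes, the mice lack T cells of thymic origin, the human proteins are foreign to them, and cages were not controlled for. Values are CPM, the counts of a gene per 1000000 counts of its library, after scaling by the trimmed mean of M-values (TMM), given with the SD over 5 mice, and LFC is the log2 fold change between groups, given with its SE. A gene was called differentially expressed (DE) at an adjusted p under 0.05 in the quasi-likelihood test of edgeR, adjusted by Benjamini-Hochberg over the 13990 genes tested. Nothing in the labels marks mice as littermates or cage mates, and an effect of cage or litter could not be modelled. The p-values set differences between groups against the spread between these kidneys.

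The kidney clears drugs, toxins and metabolites by moving them from blood to urine across the proximal tubule cell. Organic anions enter the cell from blood through the SLC22 carriers OAT1 and OAT3, and organic cations through carriers such as OCT2. They leave it for urine through the MATE exchangers and through ATP-driven pumps of the ABCB, ABCC and ABCG families. Other SLC22 carriers recover urate and carnitine from the filtrate, and the SLCO family carries bile acids, steroid conjugates, thyroid hormones and prostaglandins. Some ABCB proteins work inside mitochondria and lysosomes and some ABCC proteins are subunits of potassium channels, so family membership alone does not make a gene a drug carrier.

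The sequences below are the 250 bases before the RefSeq transcription start (GRCm38.p6), 5′ to 3′ on the gene's strand, of 4 genes. Slc22a5 and Abcc5 are shown because they were DE, and Slc22a6 and Slc22a8 because they encode the main renal anion carriers and lie side by side on chromosome 19. Capitals mark matches on either strand to GGGCGG, the GC box. RefSeq entries of this kind were found for 41 of the 53 genes.
Slc22a5 (chr11:53891704-53891953, minus strand): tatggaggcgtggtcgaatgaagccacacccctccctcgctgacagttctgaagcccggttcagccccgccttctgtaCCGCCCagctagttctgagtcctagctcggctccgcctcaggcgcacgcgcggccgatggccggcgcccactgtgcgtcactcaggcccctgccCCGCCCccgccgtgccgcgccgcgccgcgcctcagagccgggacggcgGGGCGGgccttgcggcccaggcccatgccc
Abcc5 (chr16:20426395-20426644, minus strand): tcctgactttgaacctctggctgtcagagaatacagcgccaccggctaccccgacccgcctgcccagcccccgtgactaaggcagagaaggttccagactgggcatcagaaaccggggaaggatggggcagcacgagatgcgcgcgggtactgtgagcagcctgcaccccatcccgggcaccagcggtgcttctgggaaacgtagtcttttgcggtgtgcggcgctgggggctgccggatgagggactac
Slc22a6 (chr19:8617746-8617995, plus strand): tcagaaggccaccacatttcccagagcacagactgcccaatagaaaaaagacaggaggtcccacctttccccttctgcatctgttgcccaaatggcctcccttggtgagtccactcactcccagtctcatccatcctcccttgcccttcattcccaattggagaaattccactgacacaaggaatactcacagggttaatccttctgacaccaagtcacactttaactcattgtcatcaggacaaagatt
Slc22a8 (chr19:8592932-8593181, plus strand): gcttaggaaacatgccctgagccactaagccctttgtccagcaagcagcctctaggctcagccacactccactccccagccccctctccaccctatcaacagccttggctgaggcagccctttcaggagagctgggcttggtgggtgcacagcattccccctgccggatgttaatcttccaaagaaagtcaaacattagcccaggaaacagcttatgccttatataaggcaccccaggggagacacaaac
The Slc22a5 window held 3 matches to GGGCGG and 73.6% of its bases were G or C. The windows of Abcc5, Slc22a6 and Slc22a8 held none, with 64.0%, 48.4% and 55.2% G or C. Among 32851 windows of this length, 32.7% held GGGCGG, and the median share of G or C was 52.4%. Of the 49 windows of transporter genes (some genes have more than 1 start), 19 held it. These are matches of letters and were not tested for binding.

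In Control kidneys the leading transporters per length were carriers of the proximal tubule, and the lowest of those tested was Slco1b2, at 0.110 CPM per kilobase of exon. On that scale Slc22a18 (a carrier of uncertain substrate) stood at 245 ± 33.4 (SD, n = 5), Slc22a12 (the urate exchanger URAT1) at 215 ± 49.0 and Slc22a8 (OAT3) at 190.4 ± 36.4. Slc47a1 (MATE1, the exporter of organic cations to urine) stood at 134 ± 17.5 and Slc22a6 (OAT1) at 124 ± 21.8. Each neighbour in the order of the 12 highest overlapped the next between mice, so the order of neighbours is not resolved. Genes further apart in it could be separate. All Control mice of Slc22a18 (193.8 to 281.2) lay above all those of Slc22a5 (80.5 to 105.2). A narrow gap between mice (52.8 against 52.1) came after the twelfth, Slc22a2 (OCT2) at 68.5 ± 10.4, and before Slc22a13 (OAT10, a urate and nicotinate exchanger) at 47.7 ± 3.85. Between Slc22a6 and Slc22a2 lay Slc22a5 (OCTN2, the carnitine carrier) at 93.2 ± 9.14, Slc22a19 (OAT5) at 93.2 ± 11.5, Slc22a7 (OAT2) at 85.5 ± 14.2, Slco1a6 at 84.2 ± 32.2 and Abcg2 (BCRP, the urate and drug pump of the brush border) at 70.8 ± 11.3. The 8 genes with the highest CPM together took 64.1% of all counts of the 53. In all, 6 genes had a Control mean of at least 100 CPM per kilobase, 23 of at least 10, 41 of at least 1 and 12 of less than 1.

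**Figure D1:**
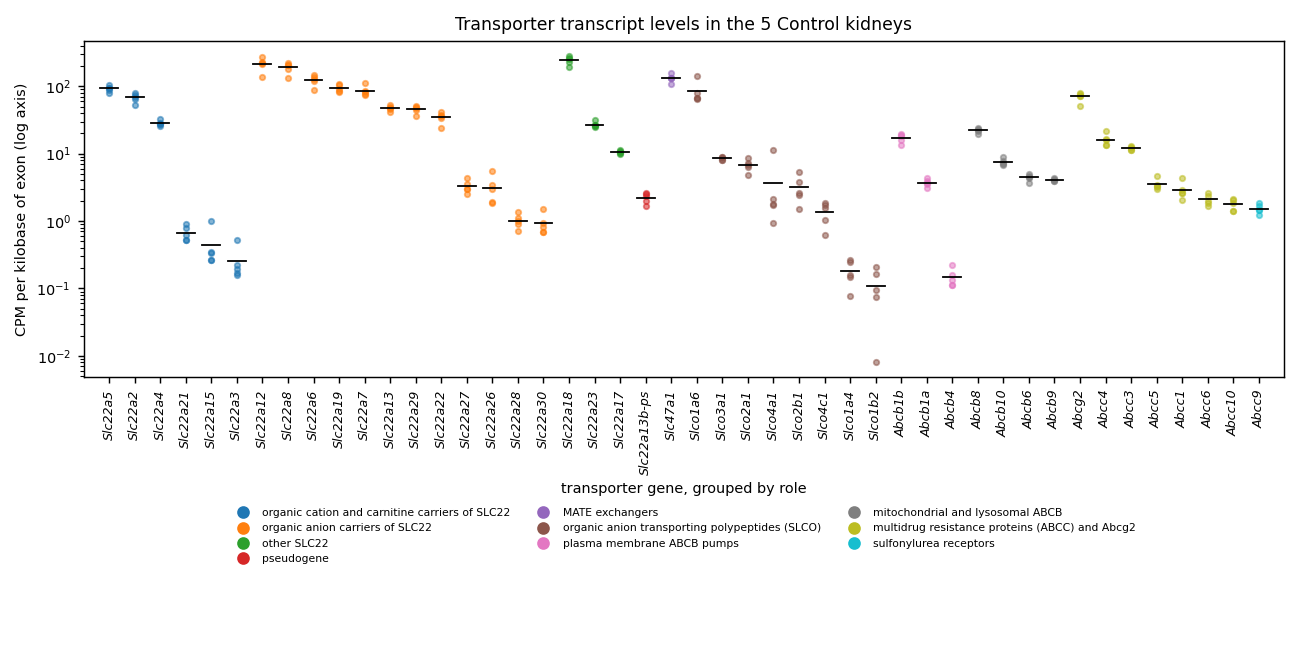
CPM per kilobase of exon (log axis) of 46 tested transporter genes in the 5 Control kidneys. Points are mice, horizontal lines are means, and colours and order on the x axis give the role of the gene. SLC22 carriers fill the top of the range, with Slc22a18 at 245, while Abcb8 at 22.1 and Abcb1b at 17.2 are the highest of the ABCB and ABCC families.

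Of the pumps, Abcb1b, which with Abcb1a encodes P-glycoprotein in the mouse, exceeded Abcb1a per length, at 17.2 ± 2.62 against 3.70 ± 0.478, and the mice of the 2 genes did not overlap in Control. Abcc4 (MRP4, a pump of anions and cyclic nucleotides) stood at 16.1 ± 3.36 and Abcc3 (MRP3) at 12.1 ± 0.650. Abcc2 (MRP2) was not analysed here. The 5 genes under the filter were Slc47a2 (MATE2), Slco1a1, Abcb11 (the bile salt pump of liver), Abcc8 (a sulfonylurea receptor) and Slc22a14. None of them exceeded 10 counts in any library, and Slc47a2, Abcb11 and Abcc8 did not exceed 7. At that depth no difference between groups could be read for them.

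Genes of the families lie in groups on the chromosomes. On GRCm38 (GENCODE vM21), 30 of the 53 genes had another within 250 kb, in 9 groups. The largest spanned chr19:7673061-8628299 and held 8 carriers of organic anions, Slc22a19, Slc22a26, Slc22a27, Slc22a28, Slc22a29, Slc22a30, Slc22a8 and Slc22a6. Slc22a3 and Slc22a2 lay together on chromosome 17, Slc22a5, Slc22a21 and Slc22a4 on chromosome 11, and Abcb1a, Abcb1b and Abcb4 on chromosome 5. Copies this close can share reads. The share of 50-base words of its transcripts that a gene had in common with others was 53.9% in Slc22a28 and 36.1% in Slc22a30, mostly with each other. It was 27.2% in Slc22a5, mostly with Slc22a21, and 30.5% in Slc22a27 and in Slc22a29, mostly with each other. For Slc22a12, 29.1% of its words were shared with Nrxn2, which runs on the other strand, and the sources used here do not give the strand setting of the counting. Abcb6 shared 90.3% of its words with the readthrough gene Gm29253. These shares mark where reads could be ambiguous, and how far they make the counts uncertain was not measured.

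The tissue carried the marks of kidney, and 1 Control library stood apart. Slc34a1, the phosphate carrier of the proximal tubule, ranged from 3642 to 6408 CPM over the 20 libraries. Total counts ranged from 12662345 to 38651781, with Control 651 and Control 652 the deepest at 37548347 and 38651781. The 53 transporters took 0.512% to 0.661% of the counts of a library, with medians of 0.618%, 0.617%, 0.622% and 0.621% in the 4 groups as ordered above. The lowest share was that of Control 653, and 30 of the 48 tested genes had their lowest Control value there. In that library Adipoq, an adipocyte hormone, was 14.5 CPM and Aqp2, the water channel of the collecting duct, 1246. In the other 19 libraries Adipoq was at most 1.27 CPM and Aqp2 at most 482. Most LFCs against Control are therefore given without it as well. In bulk RNA, fewer cells of a type and less RNA per cell cannot be told apart.

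EIC vs. Control asked what the immune complexes did to the kidney, and 2 of 48 transporters were called in it, which does not set the transporters apart from all genes. Slc22a5 and Slco3a1 were higher in EIC, no transporter was lower, and 46 of 48 did not pass the test. The 2 of 48 stand beside 2.97% of all 13990 genes called in that comparison with 1.61% called higher and 1.37% lower. The LFCs of the 48 ranged from -0.99 to 0.69 with a median of 0.03, against a median of -0.01 over all genes. For 43 of the 48 the 95% interval of the LFC lay within a 2-fold change either way, and for 29 within 1.5-fold. Over all 13990 genes, 12613 and 10268 did. Neither call held when the libraries of these 2 groups alone entered the fit, where 146 genes were called in place of 416.

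Slc22a5 (ENSMUSG00000018900.7, chr11:53864542-53891660, minus strand) encodes OCTN2, the sodium-coupled carrier that recovers carnitine from the filtrate and also takes up organic cations. Control mice measured 322, 293, 247, 273 and 293 CPM. EIC mice measured 372, 490.5, 328, 364 and 375, S60 mice 357, 336, 381, 463 and 361 and S120 mice 352, 421, 455, 493 and 442. Every mouse that received the complexes lay above every Control mouse, and the 3 groups with complexes overlapped each other. Compared with Control, EIC was 35.1% higher (LFC 0.43 ± 0.11, adjusted p = 0.0332) and EIC + S120 51.5% higher (LFC 0.60 ± 0.11, adjusted p = 0.00185). EIC + S60 was 32.9% higher without passing the test (LFC 0.41 ± 0.11, adjusted p = 0.0689). These 3 comparisons share the Control mice. Without Control 653 the LFCs were 0.38, 0.55 and 0.36 in that order, and the EIC call was lost (adjusted p = 0.067) while that of EIC + S120 stayed (adjusted p = 0.0052). EIC vs. Control lost its call without any of 6 libraries (Control 652, 653, 654 or 655, EIC 66 or 69), with an LFC between 0.35 and 0.49 over the 20 fits that leave out 1 library. EIC + S120 vs. Control kept its call in all 20. Across the 4 groups the gene was DE as well (adjusted p = 0.0131), as 1 of 3 transporters beside 3.55% of all genes.

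Slco3a1 (ENSMUSG00000025790.14, chr7:74275419-74554780, minus strand) encodes OATP3A1, a carrier of prostaglandins, thyroid hormone and bile acids. Control mice gave 69.8, 61.7, 66.8, 68.2 and 63.1 CPM. The EIC mice gave 105, 71.8, 75.8, 72.2 and 101, the EIC + S60 mice 74.1, 68.1, 61.9, 67.5 and 65.1 and the EIC + S120 mice 91.4, 71.8, 83.8, 85.5 and 89.8. EIC and EIC + S120 both lay wholly above Control, whereas EIC + S60 overlapped Control and its mean differed from it by an LFC of 0.03 ± 0.10. The LFC was 0.37 ± 0.10 in EIC (adjusted p = 0.0411) and 0.36 ± 0.10 in EIC + S120 (adjusted p = 0.0324). EIC + S60 vs. EIC had an LFC of -0.34 ± 0.10 (adjusted p = 0.734), and EIC + S120 vs. EIC + S60 of 0.33 ± 0.10 (adjusted p = 0.265), so that neither difference between the groups with complexes passed. The highest EIC values were those of mice 65 and 69. The EIC call was lost without any 1 of 7 libraries (each Control library, EIC 65 or EIC 69), and the EIC + S120 call without any 1 of 8 (Control 652, 653, 654 or 655, EIC + S120 77, 79, 80 or 81). Without Control 653 the adjusted p was 0.0691 and 0.0648, at LFCs of 0.38 and 0.36. Both calls were also lost without both deeper Control libraries, at adjusted p = 0.145 and 0.10.

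**Figure D2:**
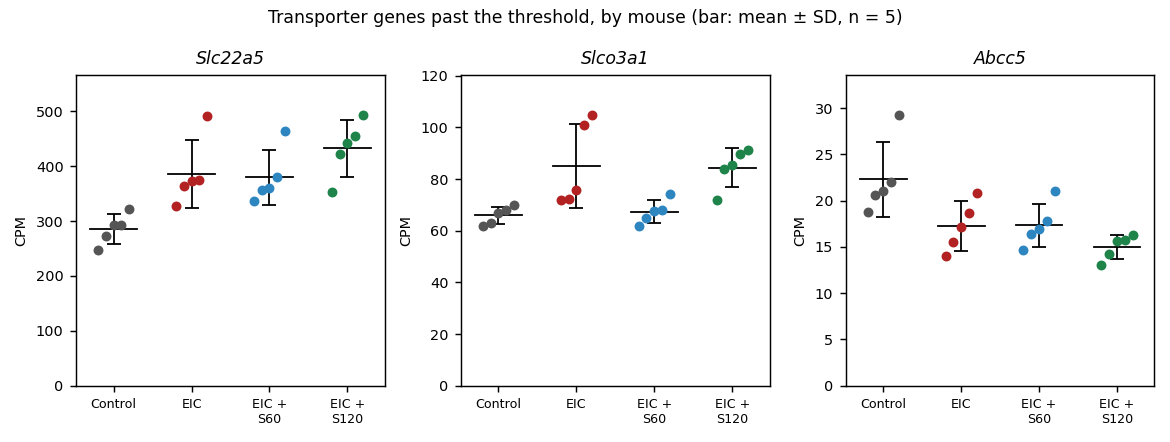
CPM of Slc22a5, Slco3a1 and Abcc5 in each of the 20 mice (y axes start at 0). Points are mice, horizontal lines and bars are means and SDs over 5 mice. Slc22a5 lies above all Control mice in every mouse given complexes, Slco3a1 does so in EIC and EIC + S120, and Abcc5 lies below all Control mice in EIC + S120.

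Sparsentan against the complexes alone was the second question, and no transporter was DE at either dose. In EIC + S60 vs. EIC edgeR called 0 of 48, with 2 at an unadjusted p under 0.05, and DESeq2 and limma-voom called 0. Over all 13990 genes 0% were called in it and 846 had an unadjusted p under 0.05 (6.05%). In EIC + S120 vs. EIC edgeR called 0 of 48, DESeq2 and limma-voom called 0, and 0.0572% of all genes were called with edgeR. At an unadjusted p under 0.05 were 3 of the 48 (6.25%) and 8.45% of all genes. EIC + S120 vs. EIC + S60 likewise gave 0 calls with all of these tools, beside 0.0643% of all genes called with edgeR. An unadjusted p under 0.05 was met there by 2 of the 48 (4.17%) and by 8.08% of all genes. The median LFC of the 48 was 0.04 at 60 mg/kg and 0.06 at 120 mg/kg vs. EIC, and -0.03 between the doses, each within 0.06 of the median over all genes. Groups did not overlap for 0 of 48 genes in EIC + S60 vs. EIC (0.886% of all genes), 0 in EIC + S120 vs. EIC (1.20%) and 1, Slc22a17, in EIC + S120 vs. EIC + S60 (1.66%). Slc22a17, the receptor of lipocalin-2, had 27.8 ± 0.504 CPM in EIC + S60 and 25.6 ± 0.953 in EIC + S120, an LFC of -0.12 ± 0.05 (adjusted p = 0.596). The intervals bound what could have been missed. At 60 mg/kg, 43 of 48 intervals lay within a 2-fold change and 30 within 1.5-fold, and at 120 mg/kg 42 and 31 did. Over all 13990 genes, 12862 and 10642 did at 60 mg/kg and 12667 and 10494 at 120 mg/kg.

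The largest shifts at 60 mg/kg, among genes averaging 1 CPM or more, were those of Slc22a30 (LFC -0.50 ± 0.29) and Slco3a1 downwards and of Slc22a29 (LFC 0.29 ± 0.16) and Slc22a27 (LFC 0.24 ± 0.21) upwards. At 120 mg/kg Slco4c1 (LFC -0.42 ± 0.31) and Slc22a28 (LFC -0.34 ± 0.27) were the lowest, and Slc22a29 (LFC 0.43 ± 0.16), Slc22a26 (LFC 0.42 ± 0.40) and Slc22a27 (LFC 0.42 ± 0.21) the highest. Their adjusted p ranged from 0.451 to 0.896 in these comparisons. Slc22a3 (OCT3), chosen here after its values were seen since its level was under 1 CPM, was the gene with an unadjusted p under 0.05 at both doses vs. EIC. EIC mice measured 0.676, 1.05, 1.36, 1.17 and 1.05 CPM, S60 mice 0.721, 0.635, 0.582, 0.383 and 0.425 and S120 mice 0.356, 0.715, 0.550, 0.693 and 0.536. Both doses overlapped EIC, with LFCs of -0.96 ± 0.28 and -0.89 ± 0.28 and adjusted p = 0.738 and 0.452.

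**Figure D3:**
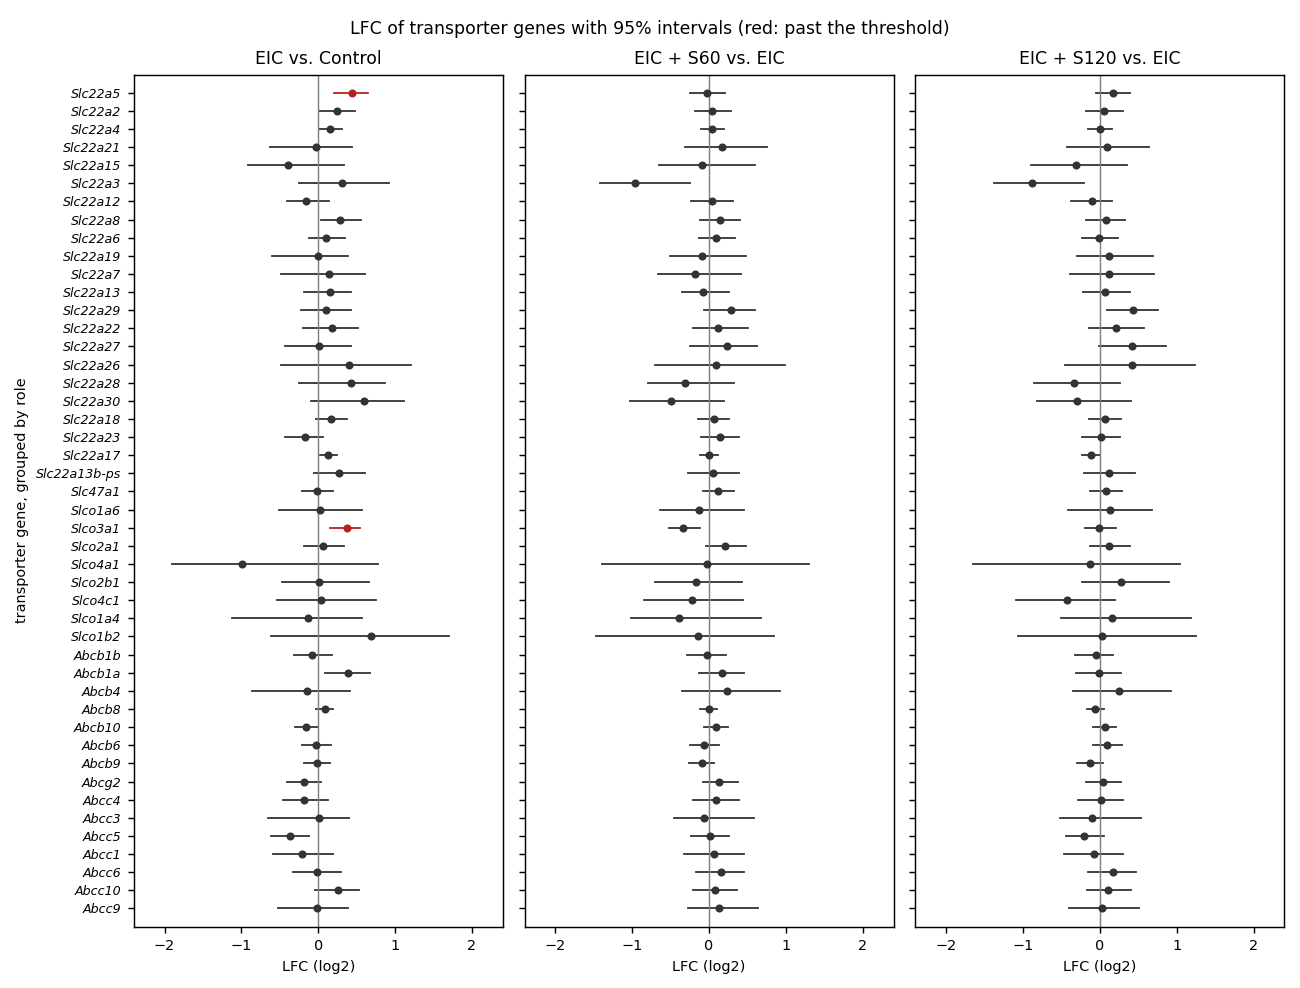
LFC (log2, x axis) of 46 tested transporter genes in EIC vs. Control and in each dose of sparsentan vs. EIC. Points are edgeR LFCs, bars are 95% intervals from limma-trend, and red marks genes past the threshold. Slc22a5 and Slco3a1 are red in EIC vs. Control, none is red against EIC, and Slco4a1 has the widest bars.

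Set against Control, EIC + S120 shared the 2 genes called in EIC, while no transporter passed in EIC + S60. Abcc5 passed as lower in EIC + S120 only, with LFCs of -0.37 in EIC and -0.36 in EIC + S60. In EIC + S120 vs. Control Slc22a5 and Slco3a1 were higher and Abcc5 lower, 3 of 48 called beside 5.55% of all genes (2.89% higher and 2.67% lower). In EIC + S60 vs. Control edgeR called 0 of 48, beside 1.29% of all genes, with 11 at an unadjusted p under 0.05 (22.9% of the 48 against 12.7% of all genes). DESeq2 called 3 there (Abcb1a, Slc22a5 and Slc22a8) and limma-voom 1 (Abcb1a). Groups did not overlap for 2 of 48 genes in EIC vs. Control (4.01% of all genes), 2 in EIC + S60 vs. Control (3.82%) and 4 in EIC + S120 vs. Control (5.82%). Abcb9, a peptide transporter of lysosomes, was the member without overlap that no tool called, with an LFC of -0.15 ± 0.08 in EIC + S120 vs. Control (adjusted p = 0.316). The median LFC of the 48 was 0.08 and 0.10 in the 2 doses against -0.01 and -0.01 over all genes, and 0.04 and 0.07 without Control 653.

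Abcc5 (ENSMUSG00000022822.16, chr16:20331303-20426394, minus strand) encodes MRP5, an exporter of cyclic nucleotides and of heme. Control mice measured 22.0, 20.6, 29.2, 21.0 and 18.7 CPM. EIC mice measured 20.9, 18.7, 15.5, 14.0 and 17.2, S60 mice 17.8, 16.4, 14.7, 16.9 and 21.0 and S120 mice 16.3, 15.7, 14.2, 15.8 and 13.0. The highest Control value was that of Control 653. All EIC + S120 mice lay below all Control mice, while EIC and EIC + S60 reached into the Control range. The LFC of EIC + S120 vs. Control was -0.57 ± 0.12 (adjusted p = 0.0064), that of EIC vs. Control -0.37 ± 0.12 (adjusted p = 0.105) and that of EIC + S60 vs. Control -0.36 ± 0.12 (adjusted p = 0.17). Without Control 653 the EIC + S120 value was -0.46 (adjusted p = 0.0195), and it was DE in all 20 fits that leave out 1 library. EIC + S120 vs. EIC gave -0.20 ± 0.12 (adjusted p = 0.669). Across the 4 groups the call of Abcc5 (adjusted p = 0.0358) was lost without any 1 of 10 libraries (Control 651 to 654, EIC 69, EIC + S60 74, EIC + S120 78 to 81), with adjusted p up to 0.107. That of Slco3a1 (adjusted p = 0.0268) was lost without any 1 of 6 (Control 652 to 655, EIC + S120 80 or 81), with adjusted p up to 0.0598.

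Organic anion carriers of SLC22, 12 tested, held no DE gene with all 20 libraries, and most of their LFCs against Control were positive (10 in EIC, 9 in EIC + S60 and 11 in EIC + S120). Without Control 653 1 of them, Slc22a12, passed as lower in EIC + S120 vs. Control. Slc22a8 (OAT3), which takes up organic anions such as diuretics and antibiotics from blood, lies beside Slc22a6 on chromosome 19. Control mice measured 782, 623, 460.1, 719 and 727 CPM. EIC mice measured 750.0, 942, 745, 866 and 719, S60 mice 799, 874, 972, 817 and 962 and S120 mice 673, 868, 916, 832 and 947. All EIC + S60 mice lay above all Control mice. Against Control the LFC was 0.28 ± 0.12 for EIC, 0.42 ± 0.12 for EIC + S60 (adjusted p = 0.106) and 0.36 ± 0.12 for EIC + S120 (adjusted p = 0.0961). The lowest Control value is that of Control 653, and without it the 3 LFCs were 0.17, 0.31 and 0.24. Its neighbour Slc22a6 (OAT1), the classic carrier of p-aminohippurate, had 495 ± 87.0 CPM in Control against 533 ± 83.6 with complexes alone, 569 ± 13.6 with S60 and 530.2 ± 48.9 with S120, with LFCs of 0.11 ± 0.11, 0.20 ± 0.11 and 0.10 ± 0.11 against Control. Without Control 653 these were 0.01, 0.10 and 0.00. Slc22a12, the urate exchanger, had 479 ± 109 CPM in Control against 427 ± 34.4 with complexes alone, 439 ± 37.4 with S60 and 397 ± 48.1 with S120. Its LFC in EIC + S120 vs. Control was -0.27 ± 0.13 (adjusted p = 0.238), and without Control 653 it was -0.40 (adjusted p = 0.0174), past the threshold. In EIC and EIC + S60 vs. Control it was -0.17 and -0.12 with all libraries and -0.29 and -0.25 without that one.

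Slc22a29, an anion carrier of rodents, came close to the threshold. Control mice measured 112, 107, 82.3, 115 and 101 CPM. EIC mice measured 103, 143, 94.3, 103 and 114, S60 mice 116, 94.7, 140.0, 173 and 156 and S120 mice 109, 148, 161, 147 and 184. Values of EIC + S120 overlapped those of EIC and Control through mouse 77. The LFC of EIC + S120 vs. Control was 0.53 ± 0.16 (adjusted p = 0.052) and 0.46 without Control 653, and that of EIC + S120 vs. EIC 0.43 ± 0.16 (adjusted p = 0.451). Slc22a27 had 7.06 ± 1.56 CPM in Control against 7.03 ± 1.48 with complexes alone, 8.30 ± 3.03 with S60 and 9.43 ± 1.71 with S120. Slc22a26 had 9.27 ± 4.30 CPM in Control against 11.9 ± 5.11 with complexes alone, 12.8 ± 4.32 with S60 and 16.1 ± 7.20 with S120. Slc22a28 and Slc22a30, which share words of their transcripts, had means between 2.04 and 4.71 CPM. The highest LFC of EIC vs. Control among genes with at least 1 CPM was that of Slc22a30, at 0.59 ± 0.29 (adjusted p = 0.333), with its highest values in EIC 65 and EIC 69 at 5.94 and 7.89 CPM. It was 0.51 without Control 653. Slc22a22 (OAT-PG, a prostaglandin carrier) had 84.6 ± 16.2 CPM in Control against 95.6 ± 23.2 with complexes alone, 103 ± 8.50 with S60 and 110.1 ± 21.1 with S120.

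Slc22a7, Slc22a19 and Abcc3 are set side by side after their values were seen, because their EIC mice took nearly the same order. Slc22a7 (OAT2) measured 278, 96.6, 207, 165 and 241 CPM in EIC mice 65 to 69, Slc22a19 305, 120.6, 154, 117 and 231 and Abcc3 89.0, 27.8, 62.4, 40.1 and 83.5. All of them were highest in mouse 65, next in 69 and lowest in 66 and 68. In EIC + S120, mouse 78 was lowest for Slc22a7 (120.6 CPM), Slc22a19 (127) and Abcc3 (36.7). The pattern was not particular to these genes. Slc22a13 (134, 77.9, 106, 80.1 and 133 CPM in EIC) and the DE gene Slco3a1 had the EIC order of Slc22a7. Mouse 78 was their lowest EIC + S120 mouse as well (82.7 and 71.8 CPM). Slc22a7 had 179.6 ± 29.9 CPM in Control against 197 ± 70.2 with complexes alone, 174 ± 39.7 with S60 and 214 ± 54.2 with S120, and its LFC was 0.14 ± 0.26 in EIC vs. Control (adjusted p = 0.834), or 0.09 without Control 653. The summed CPM of 5 straight segment markers ran from 3383 to 4282 in Control and from 2784 to 5498 in EIC, most of it Napsa, and the part of that segment in these values was not tested.

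**Figure D4:**
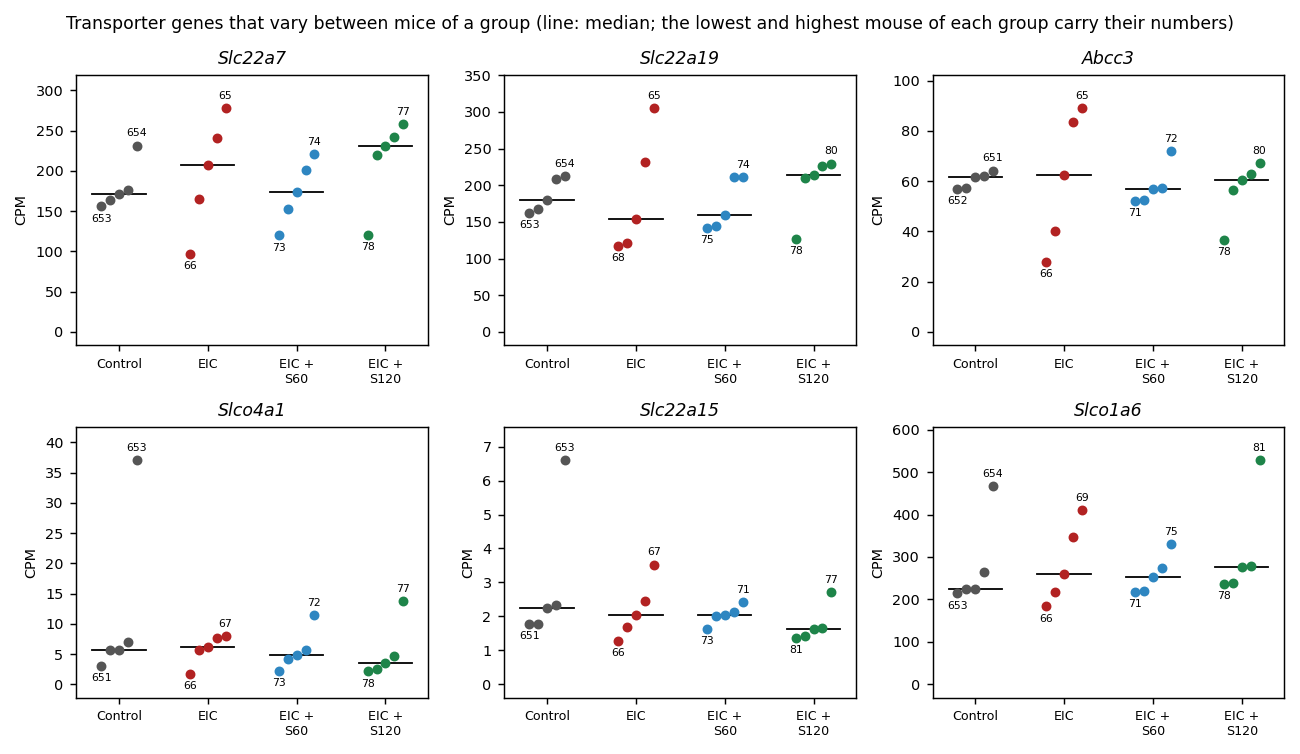
CPM of 6 transporter genes in each mouse, with the numbers of the lowest and highest mouse of each group beside the points and lines at the medians. EIC mice 65 and 66 stand at or near opposite ends for Slc22a7, Slc22a19 and Abcc3, Control 653 stands at the top for Slco4a1 and Slc22a15, and Control 654 and EIC + S120 81 stand at the top for Slco1a6.

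Among organic cation and carnitine carriers, 7 tested, Slc22a5 alone was DE. Slc22a2 (OCT2), which takes up metformin and creatinine from blood, had 170.0 ± 25.7 CPM in Control against 202 ± 37.2 with complexes alone, 206 ± 8.99 with S60 and 209 ± 26.1 with S120. Its LFC in EIC vs. Control was 0.25 ± 0.11 (adjusted p = 0.274) and in EIC + S120 vs. Control 0.30 ± 0.11 (adjusted p = 0.135), or 0.17 and 0.22 without Control 653. Slc22a4 (OCTN1, the ergothioneine carrier), a neighbour of Slc22a5 on chromosome 11, had 64.3 ± 5.69 CPM in Control against 71.8 ± 6.36 with complexes alone, 73.9 ± 7.04 with S60 and 71.8 ± 4.10 with S120 and LFCs of 0.16 ± 0.07, 0.20 ± 0.07 and 0.16 ± 0.07 against Control, with adjusted p from 0.222 to 0.281, or 0.13, 0.17 and 0.13 without Control 653. Slc22a21, the third gene of that group and the one that shares words with Slc22a5, had 2.32 ± 0.578 CPM in Control against 2.22 ± 0.760 with complexes alone, 2.53 ± 0.579 with S60 and 2.38 ± 0.699 with S120. Its LFC in EIC + S120 vs. Control was 0.06 ± 0.26. Slc22a15, at 6.60 CPM in Control 653 and 1.78 to 2.32 in the other Control mice, gave an LFC of -0.71 ± 0.30 for EIC + S120 vs. Control, and -0.18 without that library. The efflux partner Slc47a1 (MATE1) had 375 ± 49.2 CPM in Control against 372 ± 50.2 with complexes alone, 403 ± 27.9 with S60 and 392 ± 40.5 with S120, with LFCs of -0.01 ± 0.10 in EIC vs. Control (95% interval -0.22 to 0.19), 0.12 ± 0.10 in EIC + S60 vs. EIC (-0.08 to 0.33) and 0.08 ± 0.10 in EIC + S120 vs. EIC (-0.12 to 0.29). The first of these was -0.08 without Control 653.

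**Figure D5:**
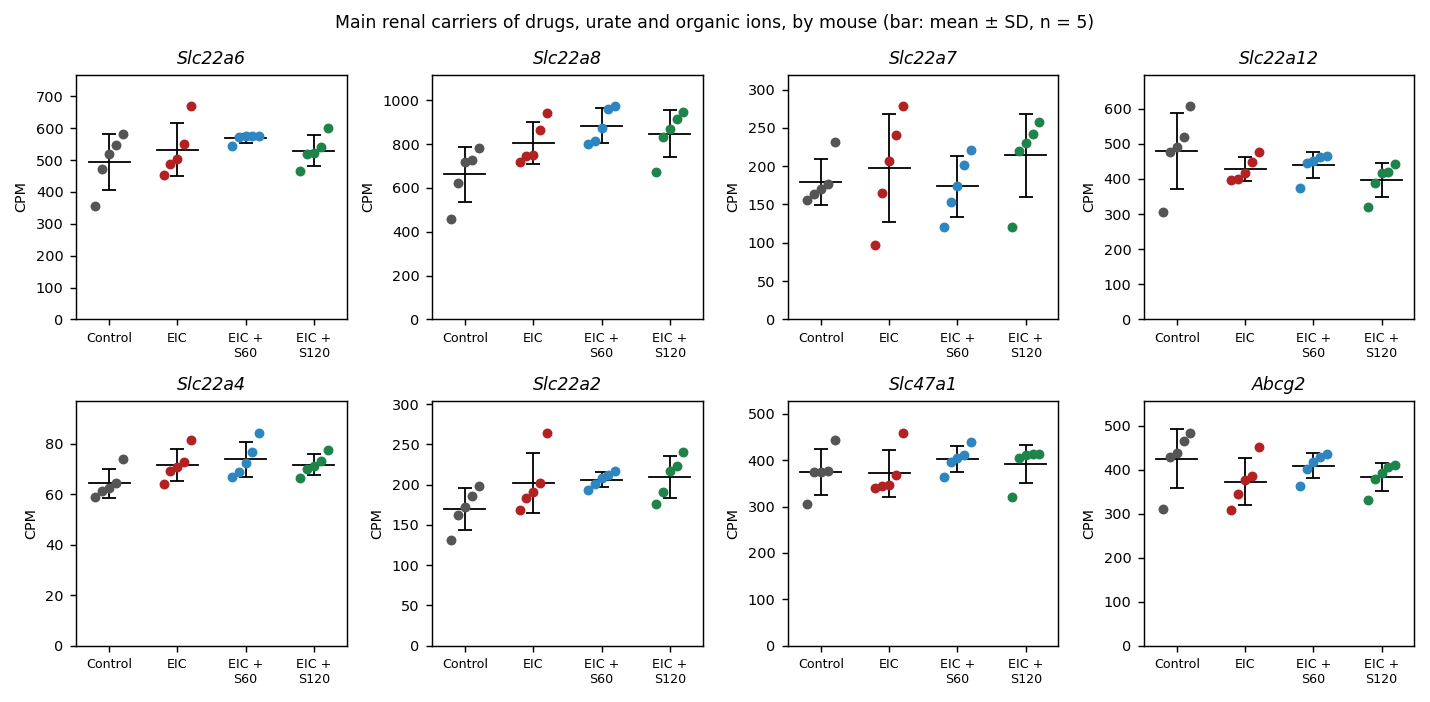
CPM of 8 main renal carriers and pumps in each mouse (y axes start at 0). Points are mice, horizontal lines and bars are means and SDs over 5 mice. The lowest Control point is Control 653 in all 8 panels, and no gene shown was DE in any comparison with all 20 libraries.

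Of the SLCO family, 8 tested, Slco3a1 was the DE gene. Slco1a6, the most abundant of them per length, had 279 ± 107 CPM in Control against 284 ± 93.7 with complexes alone, 259 ± 46.3 with S60 and 312 ± 122 with S120, with 1 mouse well above the rest in Control (mouse 654, 467 CPM) and EIC + S120 (mouse 81, 528). Its LFC in EIC vs. Control was 0.03 ± 0.26 (adjusted p = 0.977), and -0.05 without Control 653. Slco2a1 (the prostaglandin transporter PGT) had 48.5 ± 10.1 CPM in Control against 50.6 ± 7.32 with complexes alone, 58.3 ± 4.19 with S60 and 55.1 ± 5.66 with S120, and an LFC of 0.26 ± 0.12 in EIC + S60 vs. Control (adjusted p = 0.373), or 0.16 without Control 653. Slco4c1, the carrier of digoxin and uremic toxins at the basolateral side, was low in these kidneys, with 6.68 ± 2.55 CPM in Control against 6.95 ± 2.14 with complexes alone, 5.97 ± 1.58 with S60 and 5.19 ± 1.91 with S120. Slco2b1 had 18.8 ± 8.74 CPM in Control against 19.1 ± 5.42 with complexes alone, 17.1 ± 4.72 with S60 and 23.2 ± 2.09 with S120. Slco4a1 showed the most negative LFC of EIC vs. Control among genes with at least 1 CPM, -0.99 ± 0.64 (adjusted p = 0.502). It measured 3.05, 5.75, 37.0, 6.94 and 5.65 CPM in the Control mice, of which the third is Control 653, and without that library the LFC was 0.14. Slco1a4 and Slco1b2, carriers best known from blood-brain barrier and liver, were at most 1.31 and 0.983 CPM in any library.

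P-glycoprotein and the other ABCB pumps showed no DE gene with edgeR and all 20 libraries. For Abcb1a, Control mice measured 18.4, 17.6, 15.2, 19.7 and 21.7 CPM. EIC mice measured 26.7, 28.5, 21.3, 22.1 and 22.2, S60 mice 28.1, 33.8, 26.4, 19.6 and 28.4 and S120 mice 18.4, 23.1, 21.2, 31.3 and 26.1. Groups with complexes reached higher than Control, yet each overlapped it through at least 1 mouse. EIC + S60 vs. Control had an LFC of 0.56 ± 0.14 (adjusted p = 0.0512), just outside the threshold, EIC vs. Control of 0.39 ± 0.14 (adjusted p = 0.152) and EIC + S120 vs. Control of 0.38 ± 0.14 (adjusted p = 0.129). Without Control 653 the EIC + S60 value was 0.50 (adjusted p = 0.14). In 8 alternative fits, DESeq2 and limma-voom among them, Abcb1a was called in EIC + S60 vs. Control, so that its call depended on the test and the libraries. The sister gene Abcb1b had 74.2 ± 11.3 CPM in Control against 70.1 ± 5.09 with complexes alone, 68.5 ± 5.97 with S60 and 67.4 ± 12.7 with S120, with LFCs of -0.08 ± 0.12, -0.12 ± 0.12 and -0.14 ± 0.12 against Control, or -0.17, -0.20 and -0.23 without Control 653. Abcb4, the phospholipid pump of bile, had 0.623 ± 0.189 CPM in Control against 0.553 ± 0.244 with complexes alone, 0.653 ± 0.197 with S60 and 0.652 ± 0.162 with S120. ABCB genes of mitochondria and lysosomes varied little. The highest of the 20 mice exceeded the lowest 1.37-fold in Abcb9, 1.40-fold in Abcb10 and 1.44-fold in Abcb6. Abcb8, a subunit of a mitochondrial potassium channel, ranged from 62.3 to 78.5 CPM over all 20 mice, the narrowest relative range of any transporter with a count in every library (1.26-fold). These 4 had intervals within 1.5-fold in each of the 6 comparisons.

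Of Abcg2 and 6 tested ABCC pumps, Abcc5 alone was DE. Abcg2 had 425 ± 67.7 CPM in Control against 373 ± 53.6 with complexes alone, 409.7 ± 29.2 with S60 and 384 ± 32.4 with S120, and its LFC was -0.19 ± 0.11 in EIC vs. Control (adjusted p = 0.39), -0.28 there without Control 653, and 0.14 ± 0.11 and 0.04 ± 0.11 in the 2 doses vs. EIC. Abcc4 had 92.5 ± 19.2 CPM in Control against 81.6 ± 12.6 with complexes alone, 86.8 ± 12.2 with S60 and 82.2 ± 12.3 with S120, with the highest Control value in Control 653 (124 CPM). Abcc1 (MRP1, an exporter of glutathione conjugates) measured 30.6 CPM in Control 653 and 23.9 in EIC + S120 77, against 13.4 to 21.7 in the other 18 libraries. Its LFC in EIC vs. Control was -0.21 ± 0.19, and -0.01 without Control 653. Abcc3, Abcc6 and Abcc10 had LFCs of 0.01, -0.02 and 0.25 in EIC vs. Control, with adjusted p from 0.368 to 0.994. Abcc9 (SUR2, the potassium channel subunit of vascular muscle) had an LFC of -0.01 (adjusted p = 0.985). Of the remaining SLC22 genes, Slc22a17, Slc22a18 and Slc22a23 had LFCs of 0.13, 0.16 and -0.17, with adjusted p from 0.208 to 0.494. The pseudogene Slc22a13b-ps, which shares 49.9% of its words with Slc22a13, had an LFC of 0.27 and Slc22a13 one of 0.15. Leaving out Control 653, the value of Slc22a18 was 0.09, that of Slc22a17 0.11 and that of Slc22a23 -0.21.

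Carriers of the same substrates outside these families were read from a list of 22, of which 19 were tested. With all 20 libraries none was lower in any comparison and none was called between groups that received complexes. Called as higher were 2 in EIC vs. Control, where 1.61% of all genes were, 2 in EIC + S60 vs. Control, where 1.29% were called in either direction, and 4 in EIC + S120 vs. Control, where 2.89% were. Without Control 653 the counts were 1, 1 and 3, and Slc29a3, a nucleoside carrier, passed as lower in EIC + S120 vs. Control (LFC -0.48, adjusted p = 0.0448). Slc16a9 (MCT9, which exports carnitine from the cell) was higher in all 3, with 137 ± 16.8 CPM in Control against 187 ± 27.4 with complexes alone, 199 ± 15.2 with S60 and 217 ± 25.1 with S120 and LFCs of 0.45 ± 0.10, 0.54 ± 0.10 and 0.66 ± 0.10. Its adjusted p were 0.0191, 0.00687 and 0.000378, and without Control 653 0.0459, 0.0228 and 0.00136 at LFCs of 0.40, 0.48 and 0.61. Slc51b (OST-beta, the basolateral exporter of bile acids and steroid conjugates) was higher in EIC (LFC 0.30 ± 0.08, adjusted p = 0.0429) and EIC + S120 (LFC 0.41 ± 0.08, adjusted p = 0.00267). Without Control 653 its call in EIC was lost (adjusted p = 0.0898) and that in EIC + S120 was kept (adjusted p = 0.00946). Of the dicarboxylate carriers, Slc13a2 was called as higher vs. Control at both doses (LFC 0.47 ± 0.11 and 0.41 ± 0.11, adjusted p = 0.0293 and 0.0252). Slc13a3, which supplies the dicarboxylates that OAT1 and OAT3 exchange, was called as higher at 120 mg/kg (LFC 0.51 ± 0.12, adjusted p = 0.0107). In EIC vs. Control the LFCs of Slc13a2 and Slc13a3 were 0.30 and 0.22 (adjusted p = 0.142 and 0.35). Neither passed in a dose vs. EIC, with LFCs from 0.11 to 0.29. Both calls of Slc13a2 were lost without Control 653 (LFC 0.40 and 0.35, adjusted p = 0.0874 and 0.0657), and Slc13a3 passed (LFC 0.43, adjusted p = 0.0247). Of 17 regulators and scaffolds of these carriers, all tested, Pdzk1, the scaffold of apical carriers, was higher in EIC + S120 vs. Control (LFC 0.41 ± 0.10, adjusted p = 0.0139), also without Control 653 (LFC 0.36, adjusted p = 0.0355). The other 16, among them Hnf4a and Ppara, did not pass in any comparison with all 20 libraries. Without Control 653 Nfe2l2 passed as higher in EIC vs. Control (LFC 0.26, adjusted p = 0.0257).

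Other measurements moved with the groups compared to Control. Clock genes were read as lists set against and with Arntl, and their phases were not tested. Of 10 listed against it (Per1, Per2, Per3, Cry1, Nr1d1, Nr1d2, Dbp, Tef, Hlf and Ciart), 7 were higher in EIC vs. Control. Among them were Per2 (LFC 1.27 ± 0.12) and Cry1 (LFC 2.12 ± 0.18). Of 4 on the list that holds Arntl 3 were lower, among them Arntl (LFC -2.09 ± 0.34). The summed CPM of the 10 ran from 868.9 to 1017 in Control, 1211 to 1369 in EIC, 1198 to 1326 in EIC + S60 and 1099 to 1183 in EIC + S120. Single genes of the lists did not all move one way. In EIC + S120 vs. Control 5 of the 10 were higher and 1 lower (LFCs from -1.38 to 2.93). Of the 4, 1 was higher and 1 lower there. In EIC + S120 vs. EIC 1 of the 10 was lower, and in EIC + S120 vs. EIC + S60 1 was higher and 1 lower. Of 6 macrophage markers, 4 were higher in EIC vs. Control, and their summed CPM ran from 74.1 to 96.9 in Control, from 86.7 to 231 in EIC, with EIC 67 the highest, from 78.6 to 124 in EIC + S60 and from 81.8 to 110.3 in EIC + S120. None of 8 proximal tubule markers was called in any comparison, with summed CPM of 8099 to 12440.0 in Control and 9592 to 11950.0 in EIC. Nor was any marker of straight segment, thick limb, podocyte, endothelium, smooth muscle, tubular injury, adipocyte, adrenal or liver called, and of 5 collecting duct markers Aqp3 was lower in EIC + S120 vs. Control (LFC -0.45 ± 0.09, adjusted p = 0.00291). The sources used here do not give the hour at which kidneys were taken. The part of these genes and cells in the differences of Slc22a5, Slco3a1 and Abcc5 was not tested.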

How the data were processed

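Poly(A) RNA of 20 kidneys was sequenced by the submitters. Their notes name Trimmomatic 0.36, STAR 2.5.2b, featureCounts of Subread 1.5.2 and the build GRCm38, and the sources used here do not give the annotation and strand setting. The authors deposited 4 tables of raw counts per gene, 1 per group, with 15780 genes and 12662345 to 38651781 counts per library, so that depth limits genes of a few counts. Genes reaching 10 counts in 5 or more libraries were tested with edgeR 4.0.16 (quasi-likelihood, TMM, all 20 libraries, Benjamini-Hochberg, R 4.3.3). SEs and 95% intervals came from limma 3.58.1 (limma-trend, prior count 2), and can be off-centre for noisy genes. DESeq2 1.42.0, limma-voom, RLE scaling, other filters and other sets of libraries were alternatives. In counts simulated for EIC vs. Control, 27 of 50 genes with a log2 change of 0.5 were called and 44 of 50 at 1. Of the unchanged genes 7 were called, in a fit of 13990 genes in all. Positions and lengths came from GENCODE vM21, which matched all 53 genes, and promoters from RefSeq. The transporters and other lists were chosen with earlier results of these data known. Genes were named when called, when on a list of main renal carriers, or when among the 5 highest or lowest LFCs at a mean of at least 1 CPM, which gave 32. Other transporters named were chosen after their values were seen. Some values are not reported here.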

Additional observations from a re-analysis of the deposited data

Results flagged for a closer look

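In groups of 5 mice, a value was set apart when its gap to the nearest mouse exceeded 0.71 of the group's range. This was examined for 120 groups and found in 13. The 13 cannot be set against the 1 in 20 that chance gives for independent groups. Genes share their mice, and some, such as Slco4a1 and Slc22a15, were named for extreme LFCs, which 1 mouse can produce. Control 653 stood above its group for Slco4a1 (37.0 CPM, next 6.94) and Slc22a15 (6.60, next 2.32), and Control 654 for Slco1a6 (467, next 264) and Slc22a7 (231, next 176). In EIC, mouse 66 stood above for Slc47a1 (459 CPM, next 369). In EIC + S60, mouse 74 stood below for Slc22a12 (374 CPM, next 446) and Slc22a6 (545, next 573). In EIC + S120, mouse 77 stood above for Abcc1 (23.9 CPM, next 14.7), Slco4a1 (13.7, next 4.60) and Slc22a15 (2.73, next 1.65) and below for Slc47a1 (320.1, next 404). Mouse 78 of that group stood below for Slc22a7 (120.6 CPM, next 220.0), and mouse 81 above for Slco1a6 (528, next 279). EIC + S120 77 held 4 of the 13 values and was the lowest of its group for 20 of 48 transporters.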

How the results depend on the processing

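The number of transporters called depended on the test and the libraries wherever Control was compared. In EIC vs. Control, 2 became 1 with limma-voom, 0 with the libraries of the 2 groups alone and 0 without both deeper Control libraries, and lay between 0 and 2 when 1 library was left out. In EIC + S60 vs. Control, 0 became 3 with DESeq2, 1 with limma-voom and 1 with a filter of at least 1 CPM in 5 libraries, and lay between 0 and 2 with 1 library left out. In EIC + S120 vs. Control, 3 became 5 with DESeq2 (adding Slc22a29 and Slc22a8), and lay between 2 and 6 with 1 library left out, 6 being reached without EIC + S120 77. Across the 4 groups, 3 became 5 with DESeq2 and 1 without both deeper Control libraries, and lay between 1 and 4 with 1 library left out. None of the comparisons among groups with complexes called a transporter under any alternative. Of the values of single genes, 4756 kept their direction and side of the threshold or moved within the spread, 27 lost a call, 26 gained 1, 45 moved further and 0 reversed while called. Counts over all genes in EIC vs. Control were 416 with edgeR, 704 with DESeq2, 146 with the libraries of the 2 groups alone and 120 without both deeper Control libraries. The causes were not tested. No paired analysis was possible because the groups share no mouse numbers. Depth limits the genes of a few counts, 5 of which were not tested.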
